A study of Mus musculus with 8 samples.

Results

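CpG methylation was followed at 9 genes of the oligodendrocyte lineage, chosen by name: Mbp, Mog, Mag, Cnp, Mobp, Sox10, Olig1, Olig2 and Myrf. A gene's window was its mm10 span plus 5 kb on either side, and a cytosine entered when all 8 libraries covered it with at least 10 reads. The 9 windows held 746 such cytosines of the 1510385 in the whole data set, and 1352 cytosines that were listed in any library. Cytosines separated by at most 100 bp were joined into runs of at least 3, which gave 55 runs of 128816 in all. Levels were also averaged over each gene end (1 kb either side of the first or last base of the span) and over the interior (the rest of the span).

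The libraries were made by reduced representation bisulfite sequencing, which reads CpG-rich restriction fragments after bisulfite has converted unmethylated cytosines. DNA came from the tissue labelled dDG DGC layer, dissected from the brain of male C57 BL/6 mice. The comparison was between 4 mice labelled for cocaine self-administration and 4 labelled saline, with 1 library per mouse and no other treatment or allele in the labels. The dose, schedule, age and time of dissection were not given in the sources used here.

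Oligodendrocytes wrap axons in myelin, and their progenitors persist throughout the adult brain. Olig1, Olig2 and Sox10 are transcription factors of the whole lineage, Myrf drives the myelin programme as the cells mature, and Mbp, Mobp, Cnp, Mog and Mag encode proteins of the myelin sheath. CpG-dense gene starts are usually unmethylated whether or not a gene is used, whereas CpG-poor myelin gene starts are often methylated in cells that do not make myelin.

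The starts of these genes differ in how many CpGs they hold. The RefSeq promoter table (assembly GRCm38.p6, 250 bases before to 50 after a start) held entries for Mag, Mog, Mobp, Cnp and Olig2. The 3 below are shown 5′ to 3′ on the gene's own strand with each CG in capitals. Among these 5 genes Mag was the one whose promoter was read in all 8 mice. The other 2 shown mark the CpG-poor and the CpG-rich extreme. They lie at chr7:30914814-30915113 on the minus strand (Mag), chr17:37023349-37023648 on the minus strand (Mog) and chr16:91225300-91225599 on the plus strand (Olig2).
Mag: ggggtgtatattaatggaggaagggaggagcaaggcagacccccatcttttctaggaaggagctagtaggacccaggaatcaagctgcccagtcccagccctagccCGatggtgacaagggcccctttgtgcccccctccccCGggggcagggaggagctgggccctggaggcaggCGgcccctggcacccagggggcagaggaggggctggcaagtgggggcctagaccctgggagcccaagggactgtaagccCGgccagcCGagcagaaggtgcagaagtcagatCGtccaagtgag
Mog: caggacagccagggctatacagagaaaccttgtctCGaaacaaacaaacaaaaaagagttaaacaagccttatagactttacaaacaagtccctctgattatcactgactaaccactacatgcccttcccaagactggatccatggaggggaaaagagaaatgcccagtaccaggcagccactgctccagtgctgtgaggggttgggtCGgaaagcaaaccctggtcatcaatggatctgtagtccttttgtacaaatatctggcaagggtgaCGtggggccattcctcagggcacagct
Olig2: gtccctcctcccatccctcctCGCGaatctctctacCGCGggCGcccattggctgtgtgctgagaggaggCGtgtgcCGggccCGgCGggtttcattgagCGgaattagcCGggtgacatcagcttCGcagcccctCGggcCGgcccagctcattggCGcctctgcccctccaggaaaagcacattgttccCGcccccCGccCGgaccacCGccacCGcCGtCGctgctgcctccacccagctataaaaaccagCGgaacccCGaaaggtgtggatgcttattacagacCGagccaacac
The Olig2 promoter holds 25 CGs and the Mog promoter 3, against a median of 7 over the 32851 promoters of the table. The Cnp promoter holds 17 and the Mobp promoter 5. No cytosine of the Olig2, Mog, Mobp or Cnp promoter windows had 10 reads in every library. Of the 6 CGs of the Mag promoter, 5 were read in all mice, 7 cytosines in all because the strands were kept apart. The letters ACAAAG, a core shared by binding sites of SOX proteins, were searched on both strands and found at 6 places in the Mobp promoter, at 1 in the Mag promoter shown and at 1 in that of Cnp. They were not found in the Olig2 or Mog window, and 18.7% of all promoters of the table hold them. The E-box letters CANNTG, which basic helix-loop-helix proteins such as the OLIG factors can bind, occur at 2 places in the Mag promoter and 1 in that of Cnp, and in 72.3% of all promoters. These matches describe the letters of the windows and are not measured sites.

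The reads summed over listed cytosines ranged from 87964952 in cocaine 3 to 141775386 in saline 3, and median coverage from 34 to 66 reads. Saline 1 stood apart: among cytosines with 30 to 40 reads and a mean level of 20 to 80%, 14.1% read exactly 0 or 100% there, against 0.504 to 2.71% in the other 7 libraries. In the windows of the 9 genes this held for 4 of 18 such cytosines in saline 1, for 2 of 23 in saline 4 and for none in the other 6. Cocaine 3 had the lowest mean level over common cytosines, 36.5%, where the other 7 lay between 37.1 and 38.3%. Markers of the cell types the dissection could hold (granule and pyramidal cells, interneurons, astrocytes, microglia, endothelial cells) overlapped between the groups at gene ends and at interiors in each list. For granule cell markers the mean level at ends lay between 15.1 and 17.1% in cocaine and between 15.9 and 17.5% in saline mice. Among these lists, endothelial markers at ends differed most against their spread, with means of 24.8% ± 3.20 (cocaine) and 29.6% ± 1.76 (saline). Astrocyte markers at interiors came next, 40.4% ± 0.715 and 42.4% ± 1.45. The microglia list rested on 1 gene at ends. For the oligodendrocyte lineage itself, interiors of 7 genes averaged 52.0% ± 2.03 and 55.3% ± 1.71, with overlapping groups. Against its spread, that gap lay between the endothelial and the astrocyte one. At ends the lineage was slightly higher in cocaine mice, 25.9% ± 2.36 against 25.5% ± 1.98. The part of the other cell types in the results was not tested. Methylation does not show expression, so the labelled cell type could not be checked against its markers here.

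The windows of the 9 genes ranged from almost unmethylated to highly methylated. At Olig1 89.7% and at Olig2 82.3% of the window's cytosines had a mean level under 5%. The share was 46.4% at Sox10, 30.2% at Mbp, 17.6% at Myrf and 2.86% at Mag. At Mog, Cnp and Mobp no cytosine was under 5%, and at Mog 86.4% were above 80%. Over the whole window the mean level ran from 3.22% ± 0.507 in cocaine and 3.29% ± 0.983 in saline mice at Olig2 (SD, n = 4 each) to 84.8% ± 4.31 and 84.4% ± 5.55 at Mog. These averages depend on which fragments were read, so a window's level is that of its read CpGs and not of the gene.

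**Figure D1:**
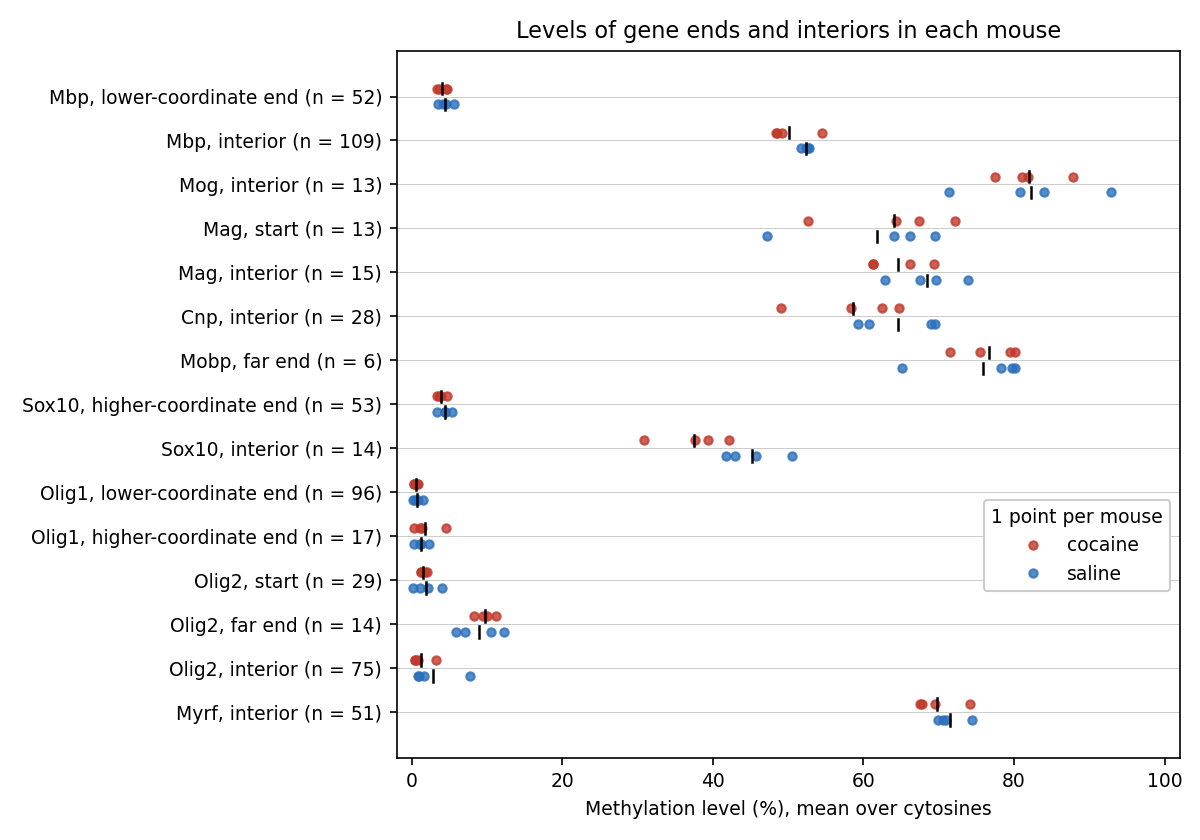
Methylation level in percent (horizontal axis, mean over the n cytosines given with each name) of the gene ends and interiors with at least 5 common cytosines; each point is 1 mouse, red for cocaine and blue for saline, and black ticks are group means. The Olig1, Olig2 start, Mbp end and Sox10 end points lie under 6%, the interiors of Mog, Mag, Cnp and Myrf lie between 49.1 and 92.8%, and cocaine and saline points overlap on every line.

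Between cocaine and saline mice no gene end, interior or run of these genes passed the test. The test was a quasi-binomial fit to methylated and unmethylated reads, moderated with limma, with p-values adjusted over all features of a kind, and a call needed an adjusted p under 0.05 and a difference of 10 points for runs or 5 for ends and interiors. Over the whole data set 0 of 95079 tested runs (0%), 0 of 7336 gene ends and 0 of 14641 interiors were called, with smallest adjusted p values of 0.293, 0.234 and 0.595. At an unadjusted p under 0.05 there were 5397 runs, 424 ends and 995 interiors. A limma fit on the logit scale likewise called 0 of each, with 4893, 415 and 992 at that unadjusted level. In tissue of mixed cells, a different share of a cell type and a different level within a cell type cannot be told apart.

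Of the 55 runs at these genes 41 had a pooled level between 5 and 95% and were tested, and the other 14 lay below 5%. An unadjusted p under 0.05 was reached by 2 of the 41, a run in Sox10 and a run in Mog, which is 4.88% against 5.68% of all tested runs. In both the cocaine mean was the lower, against 4.58% of all tested runs at that level and in that direction. In 25 of the 41 the mean was lower in cocaine mice and in 16 higher. That is 61.0% lower, where 61.2% of all tested runs were lower. The median difference was -1.99 points, against -1.03 over all tested runs. In 0 of the 41 did the 4 cocaine and 4 saline mice fail to overlap, against 3.3% of all tested runs (2.6% with the lower level in cocaine). Among the 693 single cytosines of the 55 runs 5 did not overlap, which is 0.722% against 1.36% over all runs, and 4 of the 5 were lower in cocaine mice (0.922% over all runs).

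The sign of the difference at the Mag and Mog interiors and at the 3 tested ends depended on the weighting of cytosines. All 6 tested interiors (Mbp, Mog, Mag, Cnp, Sox10, Myrf) had the lower mean in cocaine mice, where 71.4% of all tested interiors did, with a median of -3.09 points against -0.92. When reads were summed over cytosines, the Mag and Mog interiors were higher in cocaine mice, by 1.02 and 1.62 points. The Mbp, Cnp, Sox10 and Myrf interiors stayed lower, at -4.23, -6.80, -6.02 and -1.81 points. None of the 6 reached an unadjusted p under 0.05, against 6.8% of all interiors (5.97% lower in cocaine). In each the groups overlapped, where 4.65% of all interiors did not (4.23% lower in cocaine). Without cocaine 4, 3 of the 6 (Mbp, Sox10, Cnp) were under an unadjusted p of 0.05, as were 12.5% of all tested interiors in that fit, and the smallest adjusted p was 0.309. All 3 tested ends (Mag start, Mobp far end, Olig2 far end) had the higher mean in cocaine mice, where 63.4% of all ends were lower, and their differences of 0.79 to 2.34 points were within the spread between mice. With reads summed, all 3 ends were lower, by -0.206 points at the Mag start, -2.39 at the Mobp far end and -0.0626 at the Olig2 far end. None of the 3 reached an unadjusted p under 0.05, against 5.78% of all ends, and none separated the groups, which 3.82% of all ends did.

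**Figure D2:**
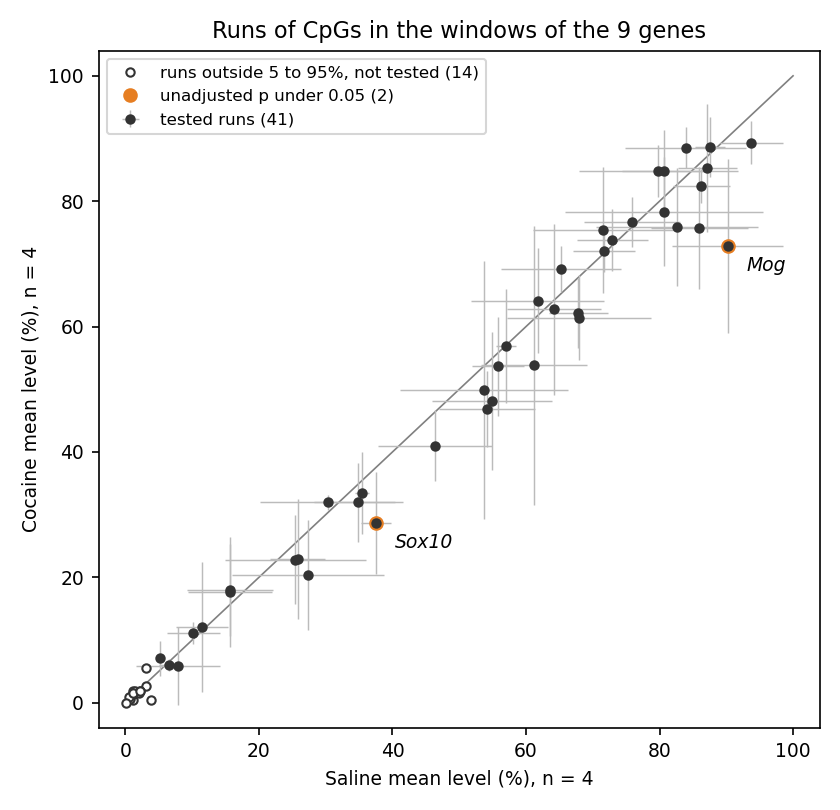
Mean level of each of the 55 runs in the 4 saline mice (horizontal axis, percent) and the 4 cocaine mice (vertical axis, percent), with bars of 1 SD on the 41 tested runs and the line of equal levels. Points lie near the line over the whole range, and the 2 runs ringed in orange, in Sox10 and Mog, lie below it by 8.85 and 17.4 points, although at both the mice of the groups overlap.

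Sox10, which marks the whole lineage and is needed for myelin genes to be switched on, showed the lowest interior level of the methylated genes and one of the 2 runs under an unadjusted p of 0.05. Its span is chr15:79154913-79164490, and 84 cytosines were read. At the higher-coordinate end 53 cytosines were low in every mouse, from 3.30 to 5.38%. The interior, 14 cytosines, read 39.3, 30.9, 37.7 and 42.1% in cocaine 1 to 4 and 50.5, 43.0, 41.7 and 45.7% in saline 1 to 4. Cocaine 4 lay just above saline 3, and the other 3 cocaine mice were below every saline mouse. The difference in the Sox10 interior was -7.71 points, with SDs of 4.76 and 3.93 (two-sided exact permutation p = 0.0571, n = 4 each, limma-moderated adjusted p = 0.720). Without saline 1 it was -5.94 points.

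Most of the Sox10 interior was a run of 10 cytosines at chr15:79159188-79159326, 4275 bp from the lower-coordinate end of the span. Cocaine 1 to 4 read 31.4, 21.3, 23.2 and 39.0% there, and saline 1 to 4 read 40.8, 37.0, 35.4 and 37.1%. The saline mice lay close together, and cocaine 4 fell among them while the other 3 lay below. The mean was lower in cocaine mice at each of the 10 cytosines, by 2.12 to 19.0 points. Cytosines this close on the same strand had near equal read numbers and may share reads. The run's difference was -8.85 points (unadjusted p = 0.0149, adjusted p = 0.875 in the moderated fit, exact permutation p = 0.114). Without saline 1 it was -7.79 points and without cocaine 4 it was -12.3 points. Without cocaine 2 it was -6.37 points, with an unadjusted p of 0.102 in the moderated fit. The limma fit on logits with all mice gave an unadjusted p of 0.0683 for this run. A neighbouring Sox10 run of 3 cytosines at chr15:79160546-79160579 had means of 75.9% ± 9.39 and 82.6% ± 12.1. Beyond the higher-coordinate end, 2 runs lie inside or within 1 kb of the neighbouring gene Gm10863. They read 61.4% ± 6.81 against 68.0% ± 10.8 and, farther out, 88.5% ± 3.25 against 83.9% ± 9.05.

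**Figure D3:**
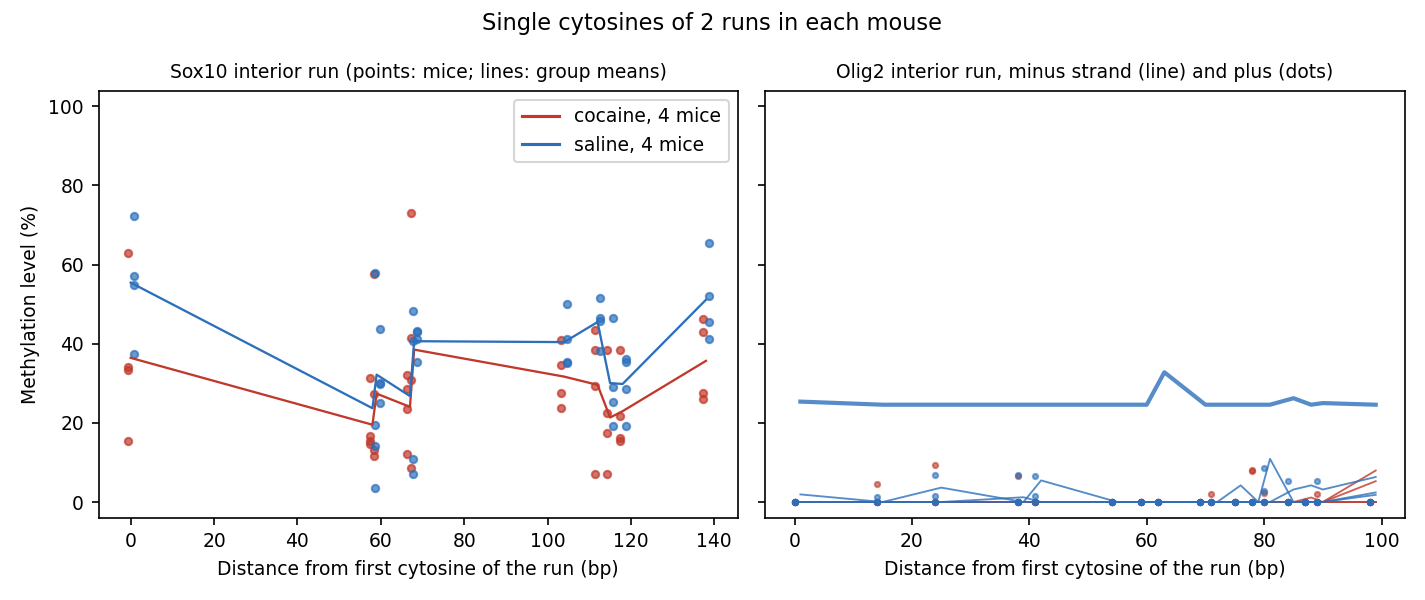
Methylation level in percent of single cytosines against distance in bp from the run's first cytosine, red for cocaine and blue for saline mice. Left, the Sox10 interior run, where the cocaine group mean is below the saline mean at each of the 10 cytosines while the mice overlap; right, an Olig2 interior run, where 1 saline library, saline 1 (thick line), reads 24.6 to 32.8% on the minus strand and the other lines lie near 0.

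Olig1 and Olig2, the basic helix-loop-helix factors that specify the lineage, were lowly methylated inside their spans. Olig1 (chr16:91269769-91271939) had 96 cytosines at its lower-coordinate end, a single run of 769 bp, with levels between 0.198 and 1.46% in the 8 mice. Its higher-coordinate end, 17 cytosines, lay between 0.278 and 4.48%, with cocaine 4 highest. The level was higher outside the gene. A run of 9 cytosines, which starts 1326 bp before the lower-coordinate end, read 27.7, 37.1, 25.4 and 37.7% in cocaine and 33.4, 43.2, 27.1 and 35.6% in saline mice. High and low mice occurred in both groups, and the difference was -2.88 points (adjusted p = 0.979). With a coverage of 20 or more it was 3.39 points, so its direction depends on which cytosines are kept.

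Olig2 (chr16:91225550-91228677) had 203 common cytosines, the most of the 9 genes. Its start, 29 cytosines, read 1.55% ± 0.357 in cocaine and 1.84% ± 1.63 in saline mice. The far end, 14 cytosines of which 11 lie 407 to 565 bp beyond the last base and inside the neighbouring gene Gm52261, was higher. It read 9.40, 8.23, 9.99 and 11.3% in cocaine and 5.83, 7.12, 10.5 and 12.3% in saline mice. The saline mice spanned both sides of the cocaine mice, and the difference was 0.79 points (exact permutation p = 0.629, adjusted p = 0.996). Without saline 1 it was -0.240 points. Of the 11 Olig2 runs 8 were under 5% and 3 between 5 and 20%.

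The largest value inside Olig2 belonged to 1 library. The interior, 75 cytosines, read 0.458, 0.413, 3.26 and 0.778% in cocaine 1 to 4 and 7.72, 1.58, 1.00 and 0.768% in saline 1 to 4. Saline 1 and cocaine 3 stood above the other 6 mice. In saline 1 the excess lay in a run of 34 cytosines at chr16:91226945-91227044, whose mean was 13.3% there and 0 to 1.22% in the other 7 mice. All 17 minus-strand cytosines of that run read 24.6 to 32.8% in saline 1, and 13 of them held 15 methylated of 61 reads. The plus-strand cytosines of the same run had a median of 0% in saline 1. In cocaine 3 part of the excess lay in the next run, chr16:91227162-91227336, at 5.85%, where saline 1 read 3.34% and the other 6 mice 0 to 0.7%. The run at chr16:91226375-91226598, which lies partly in the interior, read 4.58% in cocaine 3 and 0.528 to 1.53% in the other cocaine mice. Saline 2 read 4.35% there. Whether the minus-strand reads of saline 1 are copies of few molecules was not tested.

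Of the 14 untested runs, that which begins 3836 bp upstream of Olig2 had the smallest exact p. Its 13 cytosines at chr16:91221714-91222024 read 5.36, 6.60, 3.32 and 7.21% in cocaine and 3.41, 1.71, 3.71 and 3.25% in saline mice. Cocaine 3 fell among the saline mice and the other 3 lay above them. The difference was 2.61 points (exact permutation p = 0.0857, n = 4 each). A run of 32 cytosines at chr16:91232241-91232922 lies inside or within 1 kb of Gm52261. It read 7.13% ± 2.79 against 5.20% ± 0.635 (adjusted p = 0.929), and had the smallest p of the tested runs that were higher in cocaine.

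Myrf, a membrane-bound transcription factor that is cleaved to enter the nucleus and activates myelin genes, was methylated through the part of its span that was read. The span is chr19:10208271-10240777, with 68 common cytosines. The Myrf interior, 51 cytosines, read 69.5, 67.5, 67.8 and 74.2% in cocaine and 74.4, 70.6, 69.9 and 71.0% in saline mice. Cocaine 4 was near the highest saline mouse and the other 3 cocaine mice were below all saline mice. The difference was -1.74 points (exact permutation p = 0.371, adjusted p = 0.895). Within Myrf the level changed over a short distance: a run at chr19:10221170-10221324 read 89.4% ± 3.5 and 93.7% ± 4.73, and a run that starts 3942 bp beyond it, chr19:10225266-10225523, read 41.0% ± 5.67 and 46.4% ± 8.55. The latter had the smallest p of the Myrf runs (adjusted p = 0.888), with 8 of its 11 cytosines lower in cocaine mice. Without saline 1 its difference moved from -5.39 to -1.58 points. In the other direction a run of 4 cytosines at chr19:10210357-10210435 differed by 4.20 points (adjusted p = 0.933). The unmethylated Myrf run, 0% in 7 mice and 0.321% in saline 2, lies at the neighbouring genes Fen1 and Tmem258.

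**Figure D4:**
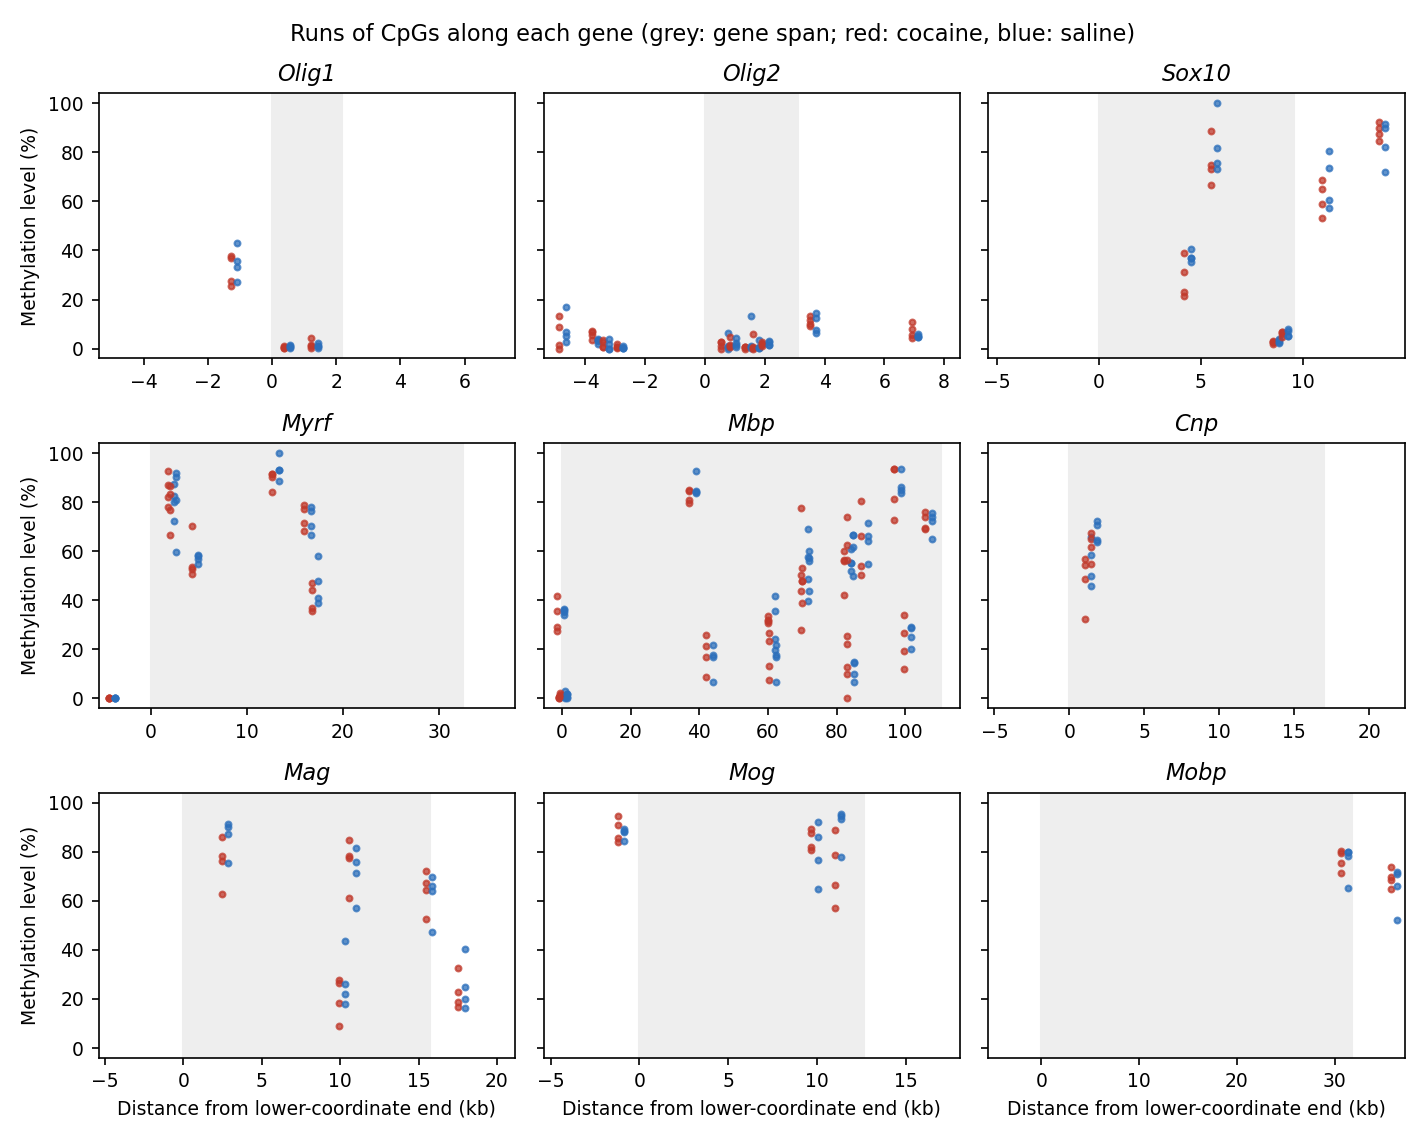
Methylation level in percent of each run against distance in kb from the lower-coordinate end of the gene, with the span in grey; points are single mice, red for cocaine and blue for saline, set slightly apart. Runs inside Olig1 and Olig2 and at one end of Sox10 and Mbp lie near 0, runs deeper in Mbp and Mag range from low to high, and no read run of Mog or Mobp lies under 50%.

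Mbp, which encodes the basic protein that compacts the myelin membrane, had the longest span of the 9 genes, chr18:82475091-82585637, and 162 common cytosines. Its lower-coordinate end was low, between 3.42 and 5.56% over 52 cytosines. The interior, 109 cytosines, read 48.4, 49.1, 48.5 and 54.4% in cocaine and 52.7, 51.7, 52.7 and 52.3% in saline mice. Cocaine 4 was the highest of all 8, and the other 3 cocaine mice were below every saline mouse. The difference in the Mbp interior was -2.25 points (exact permutation p = 0.143, adjusted p = 0.744). Without cocaine 4 it was -3.69 points (unadjusted p = 0.0133, adjusted p = 0.309). With a coverage of 20 or more it was -0.560 points, and with reads summed -4.23 points.

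The 16 Mbp runs did not share a level. Of them 2 were under 5%, 3 between 5 and 20%, 9 between 20 and 80% and 2 above 80%. Neighbouring runs could differ widely: the run at chr18:82558968-82559019 read 53.8% ± 22.2 and 61.2% ± 7.90, and the run that starts 101 bp beyond it read 12% ± 10.4 and 11.5% ± 3.90. Both are among the 5 Mbp runs that lie inside or within 1 kb of the gene Gm52337. Of the 14 tested Mbp runs 9 were lower and 5 higher in cocaine mice. The Mbp run with the smallest p, chr18:82512881-82513223, read 84.9, 84.5, 80.7 and 79.5% in cocaine and 92.7, 83.9, 84.7 and 83.9% in saline mice. Saline 1 was well above the rest there. The difference was -3.88 points (adjusted p = 0.884) and without saline 1 it was -1.76 points.

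Mag, a glycoprotein on the inner myelin layer that contacts the axon, was the gene whose promoter was read in every mouse. The span is chr7:30899175-30914922, on the minus strand. The window around the Mag start, 13 cytosines, read 52.6, 64.3, 67.4 and 72.2% in cocaine and 47.2, 66.2, 69.5 and 64.1% in saline mice. Cocaine 1 and saline 1 were lowest in their groups, and the groups overlapped through most of their range. The difference was 2.34 points (exact permutation p = 0.600, adjusted p = 0.998), and it was -2.51 points without saline 1. In the promoter shown above, the 7 read cytosines averaged 57.9% ± 7.82 in cocaine and 53.7% ± 8.97 in saline mice. Mag has a further RefSeq promoter entry at the upstream start, base 30914922, with 3 read cytosines that are among these 7. They averaged 50.3% ± 9.20 in cocaine and 39.9% ± 13.9 in saline mice, with overlapping groups, and were not tested. At the entry with its start at base 30914321, 0 cytosines were read in all mice.

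Single CGs of the Mag promoter differed more from each other than the groups did. Around the first start of the RefSeq table, base 30914863, the 4 cytosines between 5 and 38 bases downstream had group means of 60.6 to 68.2%. At the CG 73 bases upstream, the plus-strand cytosine had means of 23.6% ± 18.6 and 28.5% ± 23.5 and the minus-strand cytosine 50.3% ± 6.61 and 35.1% ± 10.9. At the CG 108 bases upstream, read on the minus strand, cocaine 1 to 4 had 80.5, 88.0, 61.9 and 77.8% and saline 1 to 4 had 41.7, 64.7, 78.0 and 40%. Saline 3 lay among the cocaine mice saline 1 and 4 lay below all 4 cocaine mice, and saline 2 lay above cocaine 3 and below the rest. These cytosines had 17 to 109 reads and were not tested singly.

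**Figure D5:**
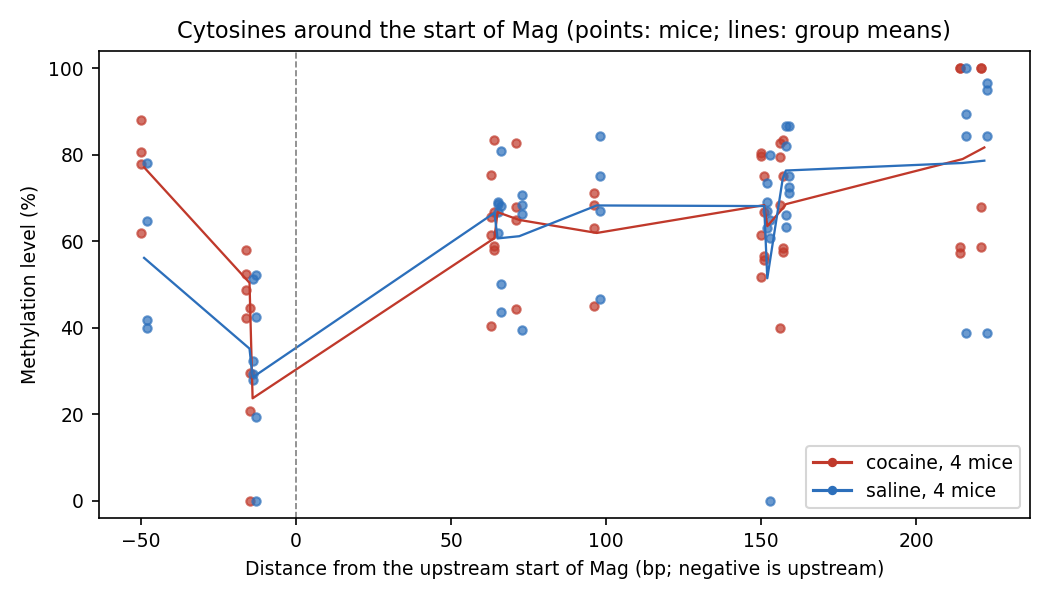
Methylation level in percent of the 13 cytosines around the start of Mag against distance in bp from the upstream RefSeq start (negative is upstream, dashed line at 0); points are single mice, red for cocaine and blue for saline, and lines join group means. The levels are lowest just upstream of the start and reach means of 78.1 to 81.6% at the farthest cytosines downstream, and the mice of both groups overlap at each cytosine.

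The Mag interior, 15 cytosines, read 61.3, 69.4, 66.1 and 61.3% in cocaine and 62.9, 67.5, 69.7 and 73.8% in saline mice. The groups overlapped, with a difference of -3.94 points (exact permutation p = 0.229, adjusted p = 0.928), which was 1.02 points when reads were summed over the cytosines. The run with the smallest p in Mag, 6 cytosines at chr7:30901775-30901855, read 62.7, 85.9, 76.1 and 78.2% in cocaine and 91.3, 75.5, 87.2 and 90.0% in saline mice. Cocaine 2 and saline 2 crossed the other group's range. Its difference was -10.3 points (adjusted p = 0.880), and -5.92 points without cocaine 1. Another run, chr7:30909908-30910043, went the other way by 3.87 points (adjusted p = 0.959) and was -0.950 points without saline 1.

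Cnp, an enzyme of the cytoplasmic channels of myelin, was read in a stretch of its interior that starts 1162 bp from the start of the span (chr11:100574909-100591875, plus strand). The interior, 28 cytosines, read 49.1, 58.3, 64.7 and 62.5% in cocaine and 69.5, 69.0, 60.8 and 59.3% in saline mice. Saline 1 and saline 2 were above all cocaine mice, and saline 3 and 4 fell among them. The difference was -5.98 points (exact permutation p = 0.229, adjusted p = 0.736), and -2.79 points without cocaine 1, the lowest of the 8 mice. Both Cnp runs were lower in cocaine mice, by 6.87 and 5.68 points. In the longer one, chr11:100576358-100576767, 17 of 21 cytosines were lower (adjusted p = 0.890).

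Mog, a glycoprotein on the outermost myelin surface, was the most methylated of the 9 genes where it was read. The span is chr17:37010740-37023398, on the minus strand, and no cytosine within 1 kb of its start was common to the 8 libraries. The interior, 13 cytosines, read 81.9, 77.5, 87.8 and 81.0% in cocaine and 80.8, 92.8, 84.0 and 71.3% in saline mice. The saline mice spread on both sides of the cocaine mice, and the difference was -0.181 points (exact permutation p = 1, adjusted p = 0.993). Within the Mog interior a run of 3 cytosines at chr17:37021919-37021935, 1463 bp inside the start, read 57.1, 66.7, 88.9 and 78.6% in cocaine and 94.4, 95.2, 77.8 and 93.3% in saline mice. Saline 3 fell among the cocaine mice and the other 3 saline mice were above all of them. The run's difference was -17.4 points (unadjusted p = 0.0269, adjusted p = 0.875, exact permutation p = 0.0857). It rests on 12 to 28 reads per cytosine in a library, the lowest mean depth among the 55 runs. Its 3 cytosines lie on the same strand and may share reads. With each mouse left out in turn, the run's unadjusted p in the moderated fit ranged from 0.0076 to 0.0973. The longer Mog run beside it, 10 cytosines at chr17:37020523-37020683, read 84.8% ± 4.19 and 79.8% ± 11.9, a difference of 4.98 points the other way.

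Mobp, a small basic protein of central myelin, was read at 14 cytosines, the fewest of the 9 genes. The span is chr9:120149742-120181488, on the plus strand. Its far end, 6 cytosines that form 1 run at chr9:120180664-120180832, read 71.5, 75.5, 79.5 and 80.2% in cocaine and 80.1, 79.8, 78.3 and 65.1% in saline mice. Saline 4 was the lowest of the 8, and the other 3 saline mice lay at the upper part of the cocaine range. The difference was 0.872 points (exact permutation p = 0.829, adjusted p = 0.947), and -2.70 points without saline 4. A run 4176 to 4408 bp beyond the Mobp span read 69.2% ± 3.70 and 65.2% ± 8.99.

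At 5 single cytosines the 4 cocaine mice did not overlap the 4 saline mice, 4 of them lower in cocaine mice, against 1.36% of all cytosines in runs without overlap. In Mbp the minus-strand cytosine at base 82513012 read 78.0 to 93.8% against 94.3 to 100%, and the plus-strand cytosine at base 82536061 read 11.1 to 20% against 23.8 to 36.9%. The Mog cytosine at base 37009725, in a run inside or within 1 kb of the neighbouring gene Zfp57, read 83.3 to 91.8% against 92.2 to 100%. At Mag base 30901775 the levels were 69.2 to 78.8% against 80.8 to 100%. Upstream of Olig2, base 91221997 was the exception in direction, with 7.32 to 13.3% in cocaine mice and 0 to 3.13% in saline mice. These 5 were picked out by their values and carry no test.

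The other genes of the pathway were taken as a list of 46, among them Cldn11, which encodes a tight junction protein of myelin, progenitor genes such as Pdgfra and Cspg4, and regulators such as Nkx2-2 and Tcf7l2. Of the 46 genes 39 had a tested run, 249 runs in all, of which 0 were called. At an unadjusted p under 0.05 there were 17 runs, 11 lower and 6 higher in cocaine mice, which is 6.83% against 5.68% over all runs. Over all tested runs 4355 were lower and 1042 higher at that level. The mean was lower in cocaine mice in 144 of the 249, which is 57.8% against 61.2% of all tested runs. The median was -1.19 points against -1.03, and in 10 the groups did not overlap, 4.02% against 3.3% of all runs. Of 12 tested ends of these genes 2 reached an unadjusted p under 0.05 (5.78% of all ends), and of 32 tested interiors 0 did (6.8% of all interiors).

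Among those genes the run with the smallest p lay at Cspg4, which encodes the progenitor proteoglycan NG2. Its 9 cytosines at chr9:56882032-56882301 read 41.0, 53.2, 47.6 and 39.7% in cocaine and 55.0, 66.8, 58.9 and 62.1% in saline mice. All cocaine mice were below all saline mice, by -15.3 points in the mean (unadjusted p = 0.000834, adjusted p = 0.875 in the moderated fit). Runs at Trf, which encodes transferrin, and Tcf7l2, a Wnt pathway factor, were lower by 18.6 and 11.5 points with overlapping groups. In the other direction, a run at Chd7, a chromatin remodeller, read 14.4% ± 4.20 against 5.03% ± 0.882, another Cspg4 run 35.7% ± 16.9 against 16.7% ± 9.57, and a further Tcf7l2 run 51.4% ± 6.80 against 35.9% ± 4.40. At the Chd7 run and this Tcf7l2 run all cocaine mice were above all saline mice. Each had an adjusted p of 0.875.

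At 131 of the 615 CpGs of the 9 windows both strands were read in all mice. Taken over each CpG in each mouse, the absolute difference between the strands had a median of 1.95 points and a mean of 6.82 points. The median was 0 points at Olig1, Olig2 and Myrf and 13.3 points at Mag, and the means were 2.02, 4.68, 7.42 and 15.3 points. Of the 12 Myrf CpGs read on both strands, 6 lie in the unmethylated run at Fen1 and Tmem258. The group differences of the 5 Mag runs ran from -10.3 to 3.87 points.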

How the data were processed

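CpG methylation was measured in 8 reduced representation bisulfite sequencing libraries, 4 cocaine and 4 saline, grouped by sample title. Per the submitters' processing notes, the tools were bcl2fastq and Bismark 22.1, and the genome build was mm10. Adapter trimming and deduplication were not given in the sources used here. The deposited files give, per cytosine and strand, a methylation level as a fraction from 0 to 1 and the read count behind it (10 or more). Level times coverage was whole, within 5e-07 times the coverage, at 100% of cytosines, so methylated reads were recovered by rounding. Median coverage was 34 to 66 reads per library, and no molecular identifiers are stated, so counting error understates the error.

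Gene spans came from a RefSeq table (GRCm38.p6), which holds neither exons nor strand, so exons, introns and UTRs were not placed. Strand was taken from the promoter table for the 5 genes it holds, and the ends of Mbp, Sox10, Olig1 and Myrf are called lower- and higher-coordinate. Levels are means over cytosines with equal weight. Features with a pooled level of 5% to 95% (gene ends and interiors with at least 5 cytosines) were tested by quasi-binomial logistic regression on group in Python 3.11.15, with dispersion moderated by limma 3.58.1 (squeezeVar, trend on log coverage, floor of 1), an F test and Benjamini-Hochberg adjustment over all features of a kind. The fit was also run on simulated reads with known differences. These did not copy the behaviour of single libraries such as saline 1, and no result here rests on them. Single levels of 15 ends and interiors and 55 runs were compared by two-sided exact permutation over 70 assignments, whose smallest p is 0.0286. These p values were not adjusted for the number of comparisons, although several of the runs they are printed for were named because a p was small. The alternatives were coverage, strand, level filter, gap and end width, weighting of cytosines, other dispersions, a limma fit on logits with an offset of 0.5, a replicate block, and each mouse left out. A fit without saline 1 and cocaine 3 was added after seeing the data.

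The rule for named runs took the smallest p of each gene, the 3 smallest p in each direction over the 9 genes, and up to 3 per direction for the 46 other genes. Further runs and cytosines were named to describe a gene and were chosen after their values were seen. The genes, lists and tests were chosen with earlier results of these data known.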

Additional observations from a re-analysis of the deposited data

Results flagged for a closer look

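Within a group of 4 mice, a value was picked out when its gap to the nearest other mouse exceeded Dixon's critical value for the share of the group's range, which chance does in about 1 in 20 groups. This held in 11 of 68 groups over 34 values, and values of 1 gene share cytosines. No explanation was weighed.

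Saline 1 accounted for 4. It read 7.72% in the Olig2 interior (other saline mice 0.768 to 1.58%), 13.3% in the Olig2 run at base 91226945 (0.190 to 1.22%), 3.34% in the Olig2 run at base 91227162 (0.367 to 0.7%) and 92.7% in the Mbp run at base 82512881 (83.9 to 84.7%). Cocaine 3 read 3.26% in the Olig2 interior (other cocaine mice 0.413 to 0.778%) and 5.85% in the Olig2 run at base 91227162 (0 to 0.606%). Cocaine 4 read 54.4% in the Mbp interior (48.4 to 49.1%). Saline 3 read 77.8% in the Mog run at base 37021919 (93.3 to 95.2%) and 0.984% in the Olig2 run at base 91222445 (0.361 to 0.397%). Saline 4 read 65.1% at the Mobp far end and in the run at base 120180664, which are the same 6 cytosines (78.3 to 80.1%).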

How the results depend on the processing

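No run, end or interior of the 9 genes was called under any alternative that was fitted. With a replicate block 1 run was called over the genome, outside these genes (adjusted p = 0.0176), and 0 at these genes. The labels do not state whether replicate numbers pair the mice. Same-numbered mice had correlations of -0.02, -0.01, 0.00 and 0.08 in their deviations from the group means, and differently numbered mice -0.138 to 0.0645. Such correlations cannot settle whether the mice were paired. Over 343 alternative values of the named ends, interiors and runs, 313 kept their direction and 30 changed sign, and the cause was not tested. The 313 include values that could not change sign. The fits without a level filter, on logits, with unmoderated dispersion and with a replicate block use the same levels, so their difference equals the main one. Summing reads gave 1.02 points for the Mag interior, -0.206 for the Mag start, -2.39 for the Mobp far end and its run, 1.62 for the Mog interior, 1.08 for the Olig1 run and -0.0626 for the Olig2 far end. A coverage of 20 gave 5.24 for the Mog interior, 0.148 for the Myrf interior and 3.39 for the Olig1 run. Leaving out saline 1 and cocaine 3 together gave -4.05 for the Mag run at base 30909908, -3.60 for the Mag start and -0.331 for the Olig2 far end. The Olig2 far end was -0.133 with strands summed and -3.92 within 500 bp of the end, and gaps of 50 bp gave -7.68 for the Mobp run. With each mouse left out in turn, the Mag run at base 30909908 ranged from -0.950 to 8.63, the Mag start from -2.51 to 6.18, the Mobp far end and its run from -2.70 to 2.59, the Mog interior from -3.81 to 3.36 and the Olig2 far end from -0.240 to 1.91 points. Without cocaine 4, 1829 interiors over the genome had an unadjusted p under 0.05, against 995 with all mice. The Sox10, Cnp and Mbp interiors and the Sox10 and Mog runs stayed lower in cocaine mice under every alternative fitted, but the Mbp interior came to -0.560 points with a coverage of 20 and the Cnp interior to -2.79 without cocaine 1. The Mog run has 12 to 28 reads per cytosine and gives no value with a coverage of 20.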
